A study of Mus musculus with 6 samples.

Results

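The 6 genes described here encode both sides of 1 protein interaction, the Id inhibitors Id1, Id2 and Id3 and the E-protein transcription factors Tcf3 (E2A), Tcf4 (E2-2) and Tcf12 (HEB). They were chosen by name, with earlier results of these data known, and all 6 were found among the 36083 genes of the expression table. A mean of 1 over the 6 libraries was required for testing, which 5 of them reached and Id3 did not. The study asked which transcripts differ in blast crisis chronic myeloid leukemia (bcCML) when the cells lack syndecan-1, a cell surface proteoglycan encoded by Sdc1. Both groups started from KLS cells, the stem and progenitor fraction of mouse bone marrow, of B6 donors that were WT or Sdc1-/-, and in both groups the cells were made to carry the oncogenes BCR-ABL and NUP98-HOXA9. Cells positive for both oncogenes were grown in NSG recipients, mice without functional lymphocytes, and all recipients were killed at the same time. RNA-seq was then performed on lineage-negative (Lin-) leukemia cells sorted from the spleen, with 3 libraries per group, and the mice of the study were young adults, with no exact age in the labels.

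E-proteins are basic helix-loop-helix (bHLH) factors that bind the E-box of enhancers and promoters as homodimers, as dimers with one another, or as dimers with tissue-specific bHLH factors such as Tal1. Id proteins keep the helix-loop-helix but lack the basic region that contacts DNA, so an E-protein bound by an Id protein cannot occupy its sites. In blood formation E-proteins are best known for starting the B and T lymphoid programs, and Id proteins for holding them back in stem, myeloid and innate lymphoid cells.

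The sequence before the annotated start was matched by symbol to RefSeq promoters of GRCm38.p6 for 4 members, Id2, Id3, Tcf3 and Tcf12. It is shown for the 3 in which it is not entirely exonic, because the E-box is the element that E-proteins bind and because Id2 and Tcf12 fell and Tcf3 rose in the comparison that follows. Bases of exons annotated in GENCODE M21 were cut off at the 3′ end. All 3 genes are on the minus strand, and capitals mark the E-box (CANNTG) and, in Id2, GGCGCC, the core of the element through which Smad proteins act on Id promoters.
Id2, chr12:25096254-25096342: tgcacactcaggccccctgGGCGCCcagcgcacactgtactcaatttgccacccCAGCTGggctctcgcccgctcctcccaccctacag
Tcf3, chr10:80433648-80433885: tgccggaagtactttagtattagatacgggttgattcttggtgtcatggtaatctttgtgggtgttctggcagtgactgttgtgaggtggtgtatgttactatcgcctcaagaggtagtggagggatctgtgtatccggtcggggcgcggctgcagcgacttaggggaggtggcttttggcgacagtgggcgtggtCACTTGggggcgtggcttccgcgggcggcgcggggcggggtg
Tcf12, chr9:72111872-72112069: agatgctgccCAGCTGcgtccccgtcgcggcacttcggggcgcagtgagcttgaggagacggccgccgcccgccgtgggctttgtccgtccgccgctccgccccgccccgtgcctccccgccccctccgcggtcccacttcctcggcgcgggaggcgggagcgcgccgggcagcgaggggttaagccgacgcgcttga
The Id2 stretch of 89 bases lies in the intron of the longest annotated Id2 transcript, upstream of the others, and the stretches of Tcf3 and Tcf12 lie just outside the annotated genes. The E-box begins 196 bases before the RefSeq start of Id2, 54 bases before that of Tcf3 and 240 bases before the 5′-most start of Tcf12, and GGCGCC begins 231 bases before that of Id2. Both motifs read the same on both strands and were searched in the 250 bases before each start. An E-box was present in 66.2% of the 32851 RefSeq windows of that length and GGCGCC in 9.59%, so the presence of an E-box does not set these 3 genes apart.

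The values are TPM, a share of all transcripts that is corrected for transcript length and therefore allows levels of different genes to be compared. They were rescaled between libraries by the authors and summed to between 944973 and 1058263 per library, and the read depth is unknown. Of the 12155 genes tested, 7374 (60.7%) passed the test between the groups, 3564 (29.3%) higher and 3810 (31.3%) lower in the libraries whose label is Sdc1-/- (KO-labelled). With the library sums made equal at 1000000 each, these counts were 5290 and 2367 and the median log2 difference of all genes moved from -0.0097 to 0.12. Sdc1 itself was higher in the KO-labelled libraries, at 3.85, 3.80 and 4.12 against 1.75, 1.21 and 1.51, so the groups are called WT-labelled and KO-labelled throughout. The paper describes the knockout as a disrupted signal peptide sequence that keeps mature syndecan-1 from the cell surface. As checks of the deletion it reports PCR of genomic DNA and immunofluorescence staining. Why the transcript was higher was not tested. Transcripts of 4 Y-linked genes also separated the groups, for example Eif2s3y at 43.2 to 49.8 in the KO-labelled libraries and at most 0.012 in the WT-labelled ones, so the sex of the donor and the genotype cannot be told apart. All 6 members are autosomal. Nothing in the labels states that the libraries of a group came from separate mice, and the study calls the WT libraries technical replicates in one place, so the SDs and p-values may cover technical spread only.

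Among the 5 tested members, Id2 had the largest log2 difference. Id2 (ENSMUSG00000020644, minus strand of chromosome 12, 25093799 to 25097140 on GRCm38) stood at 37.5, 40.0 and 37.4 TPM in the WT-labelled libraries. In the KO-labelled libraries it stood at 13.5, 13.9 and 14.6 TPM. The values of each group lay close together, with an SD of 3.78% of the mean in the WT-labelled libraries and 3.91% in the KO-labelled ones. The groups were separated by a gap wider than the spread within either. The means were 38.3 ± 1.45 and 14.0 ± 0.55 (SD, n = 3 in each group), which is 2.74-fold lower in the KO-labelled libraries. The log2(value + 1) scale understates differences of low values, the more so the closer they lie to 0. On that scale Id2 fell by 1.39 (SE 0.045, 95% interval from -1.50 to -1.28, adjusted p = 1.6e-06, limma with adjustment after Benjamini and Hochberg over all tested genes). A lower log2 difference was found for 152 of the 12155 genes, or 1.25%. In the 14 alternative fits the log2 difference of Id2 lay between -1.45 and -1.25, with adjusted p-values up to 8.2e-05 from limma.

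Id1 (ENSMUSG00000042745, plus strand of chromosome 2, 152736251 to 152737410), a direct target of BMP signals in many cell types, had WT values of 36.6, 33.5 and 31.6 TPM. The KO-labelled libraries had 25.0, 26.1 and 27.8 TPM, all below the lowest WT library, although the nearest libraries of the groups were only a few units apart. The means were 33.9 ± 2.53 and 26.3 ± 1.41 (SD, n = 3 in each group). Id1 fell by 0.35 on the log2(value + 1) scale (SE 0.063, 95% interval from -0.50 to -0.20, adjusted p = 0.0025 from limma), a smaller difference than that of Id2, whose interval does not reach it. Of the tested genes 17.0% had a lower log2 difference than Id1, so a difference of this size was common. With equal library sums, the log2 difference of Id1 was -0.21 (adjusted p = 0.022 from limma).

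Id3 (ENSMUSG00000007872, plus strand of chromosome 4, 136143497 to 136145755), which in lymphocytes shares much of its role with Id2, was close to 0 in every library. It was measured at 0.048, 0.042 and 0.053 TPM in the WT-labelled libraries and at 0.19, 0.18 and 0.22 TPM in the KO-labelled libraries. The means differed 4.11-fold, a larger ratio than that of Id2 but at a level near 0. The groups did not overlap, and Id3 was the only Id gene with more transcript in the KO-labelled libraries. In a fit without a minimum mean, in which 32.5% of 24714 genes passed, the difference of Id3 was 0.19 on the log2(value + 1) scale (SE 0.016, adjusted p = 6.2e-04 from limma). Its mean in the KO-labelled libraries was 0.20 ± 0.018 TPM (SD, n = 3), which is far below the 26.3 TPM of Id1 in the same libraries, and without read depth the precision of such a low value is unknown. Id4, the remaining gene of the family and no member of the group, was listed at 0 in all 6 libraries.

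Among the E-protein genes, Tcf3 and Tcf4 were higher and Tcf12 was lower in the KO-labelled libraries. Tcf3 (ENSMUSG00000020167, minus strand of chromosome 10, 80409514 to 80433647) gives rise by alternative splicing to E12 and E47, which are summed in a value per gene. It had the highest level of the 6 genes in both groups. Its WT values were 51.0, 44.9 and 47.5 TPM, and its values in the KO-labelled libraries were 58.3, 56.2 and 55.6 TPM. The KO-labelled values clustered together above the more scattered WT values, and the means were 56.7 ± 1.40 and 47.8 ± 3.05 (SD, n = 3 in each group). Tcf3 rose by 0.24 on the log2(value + 1) scale (SE 0.050, 95% interval from 0.12 to 0.36, adjusted p = 0.0049 from limma), and by 0.39 with equal library sums.

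Tcf12 (ENSMUSG00000032228, minus strand of chromosome 9, 71842688 to 72111871), the E-protein known for its part in early T cells as a partner of E2A, moved the other way. Its WT values of 39.8, 39.6 and 39.9 TPM were nearly the same, with an SD of 0.16 around a mean of 39.8 (n = 3). The KO-labelled libraries had 30.1, 32.8 and 32.0 TPM, with a mean of 31.6 ± 1.41 (SD, n = 3), and lay below all WT libraries by several units. Tcf12 fell by 0.32 on the log2(value + 1) scale (SE 0.040, 95% interval from -0.42 to -0.23, adjusted p = 4.4e-04 from limma). With equal library sums its log2 difference was -0.18 (adjusted p = 0.0070 from limma). A processed pseudogene, Rpl15-ps2, lies within Tcf12 on the opposite strand, with a mean of 3.35 TPM, and although the libraries were made with a stranded kit, the strand setting with which reads were assigned is not given in the sources used here.

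Tcf4 (ENSMUSG00000053477, plus strand of chromosome 18, 69343356 to 69689079), the E-protein on which plasmacytoid dendritic cells depend, had the lowest level of the 3 E-protein genes. It was measured at 11.2, 12.3 and 12.3 TPM in the WT-labelled libraries and at 14.8, 14.7 and 12.9 TPM in the KO-labelled libraries. The groups did not overlap, but replicate 3 of the KO-labelled libraries lay nearer to the WT values than to its own group. The means were 11.9 ± 0.65 and 14.1 ± 1.06 (SD, n = 3 in each group), and the log2 difference was 0.23 (SE 0.066, 95% interval from 0.069 to 0.38, adjusted p = 0.022 from limma). This call was the least firm of the 5. It was lost without a minimum mean (log2 difference 0.23, adjusted p = 0.052 from limma), without replicate 1 of the WT-labelled libraries (0.18, adjusted p = 0.066 from limma), and without replicate 1 (0.19, adjusted p = 0.066 from limma) or replicate 2 (0.20, adjusted p = 0.074 from limma) of the KO-labelled ones. With equal library sums the log2 difference was 0.36.

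**Figure D1:**
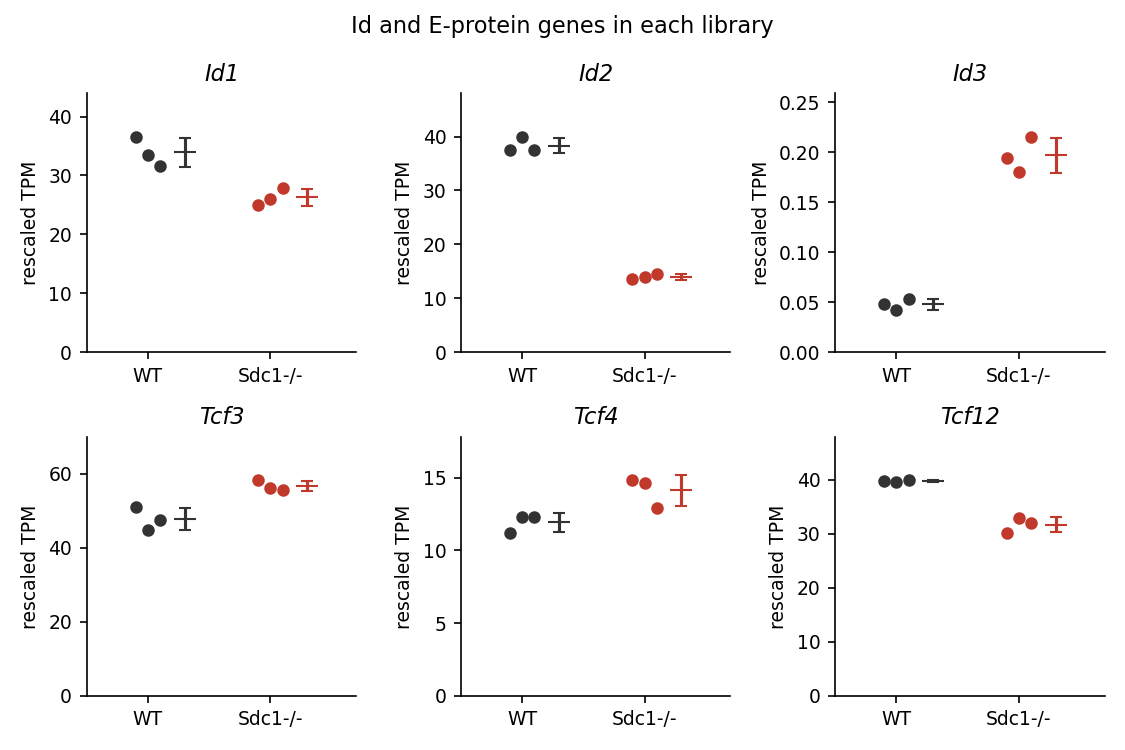
Rescaled TPM of the 3 Id genes (upper row) and the 3 E-protein genes (lower row), with a point for each of the 3 libraries of a group, and beside them a horizontal line for the mean and a bar for its SD. Each panel has its own linear axis from 0, and for Id2 the WT-labelled libraries sit between 37.4 and 40.0 while the KO-labelled ones sit between 13.5 and 14.6.

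All 5 tested members passed the test, 2 higher (Tcf3 and Tcf4) and 3 lower (Id1, Id2 and Tcf12), against 60.7% of all tested genes in either direction, 29.3% higher and 31.3% lower. The libraries of the groups did not overlap for any of the 5, as was the case for 66.7% of the tested genes. Differences that pass the test were thus frequent in these libraries, and the size of the difference separates Id2 from the other members more than the call does. The directions of all 5 were the same in all 14 alternative fits. No exact test on 3 against 3 libraries can give a p-value below 0.1, so the calls rest on the spread that limma pools over genes.

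**Figure D2:**
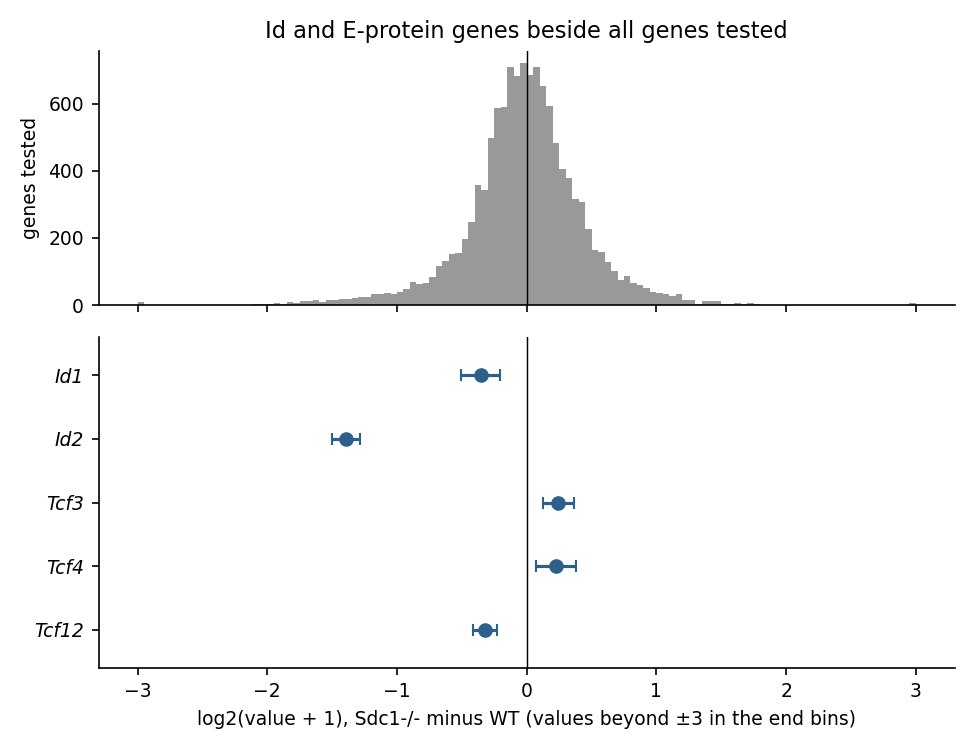
Upper panel, number of tested genes by log2 difference, Sdc1-/- minus WT, on the log2(value + 1) scale in bins that collect values beyond the axis at its ends. Lower panel, the difference of each tested Id and E-protein gene with its 95% interval from limma, with Id2 at -1.39 far to the left and the other 4 between -0.35 and 0.24.

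The order of the levels changed between the groups. In the WT-labelled libraries the order was Tcf3, Tcf12, Id2, Id1, Tcf4 and Id3, from 47.8 down to 0.048 TPM, and Tcf12 and Id2 could not be ranked because the Id2 values of 37.4 to 40.0 TPM enclosed those of Tcf12. In the KO-labelled libraries the order was Tcf3, Tcf12, Id1, Tcf4, Id2 and Id3, from 56.7 down to 0.20 TPM. There the values of Tcf4, 12.9 to 14.8 TPM, overlapped those of Id2, 13.5 to 14.6 TPM. Id2 thus moved from the level of Tcf12 to that of Tcf4, while the other members kept their order among themselves. The ratio of Id2 to Id1 was 1.03, 1.19 and 1.19 in the WT-labelled libraries and 0.54, 0.54 and 0.52 in the KO-labelled ones. The ratio of Tcf12 to Tcf3 was 0.78, 0.88 and 0.84 against 0.52, 0.58 and 0.57. Such ratios within a library are the same under any rescaling of whole libraries, and both sets were separated between the groups.

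Summed over the family, transcript of the Id genes was lower in the KO-labelled libraries, and that of the E-protein genes overlapped between the groups under the deposited scaling. The Id sum was 74.2, 73.6 and 69.1 TPM in the WT-labelled libraries and 38.7, 40.2 and 42.6 TPM in the KO-labelled libraries, with means of 72.3 ± 2.78 and 40.5 ± 1.97 (SD, n = 3 in each group). The E-protein sum was 102, 96.8 and 99.7 TPM against 103, 104 and 101 TPM, with means of 99.5 ± 2.59 and 102 ± 1.71 (SD, n = 3 in each group), and here the groups overlapped. With equal library sums the E-protein sums no longer overlapped, at 92.1 to 96.3 against 106 to 109, and the Id sums stayed apart at 65.9 to 70.1 against 40.6 to 45.1. The ratio of the Id sum to the E-protein sum does not depend on that choice, and was 0.73, 0.76 and 0.69 in the WT-labelled libraries and 0.37, 0.39 and 0.42 in the KO-labelled ones (means 0.73 ± 0.034 and 0.40 ± 0.025, SD, n = 3 in each group). These sums and ratios are descriptions without a test, they add transcripts and not protein, and the drop in Id2 is the largest part of the drop in the Id sum.

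The make-up of both sums shifted as well. Id2 made up 53.1% ± 2.13 of the Id sum in the WT-labelled libraries and 34.6% ± 0.33 in the KO-labelled libraries (SD, n = 3 in each group), while the share of Id1 went from 46.9% to 64.9%. Id3 was 0.066% and 0.49% of the Id sum. Of the E-protein sum, Tcf3 held 48.0% ± 1.84 and 55.3% ± 1.14, Tcf12 held 40.0% ± 0.94 and 30.9% ± 1.50, and Tcf4 held 12.0% ± 0.92 and 13.8% ± 0.82 (SD, n = 3 in each group). The E-protein pool was thus mostly Tcf3 and Tcf12 in both groups, with more of Tcf3 and less of Tcf12 in the KO-labelled libraries.

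**Figure D3:**
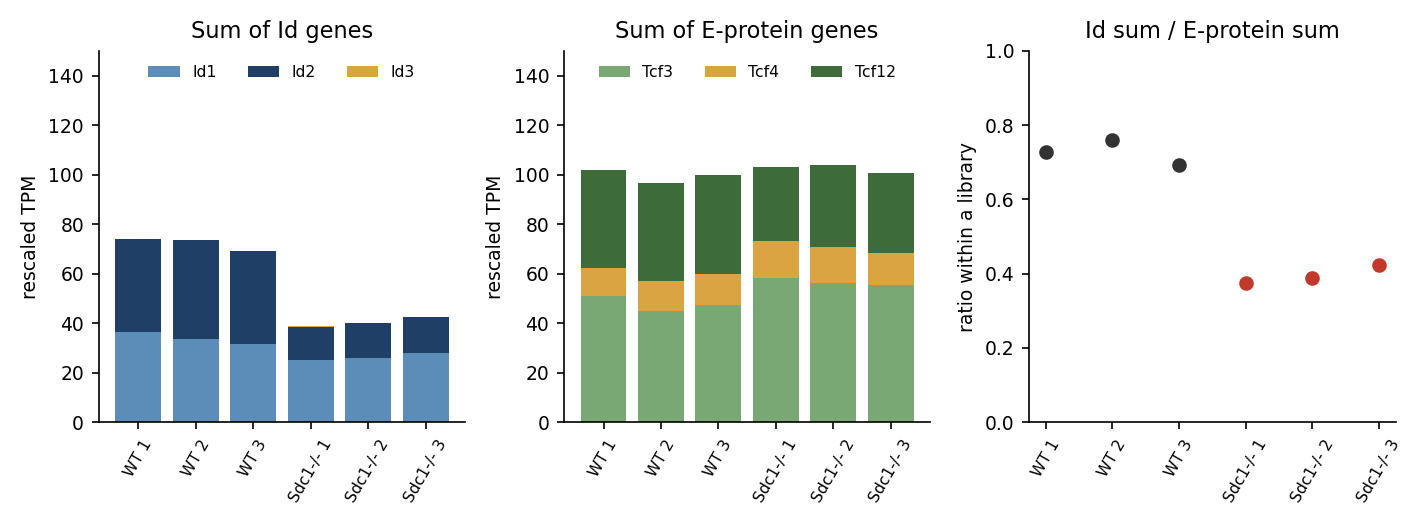
Stacked bars of the rescaled TPM of Id1, Id2 and Id3 (left) and of Tcf3, Tcf4 and Tcf12 (middle) in each library, and the ratio of the sums within each library (right, linear axis from 0 to 1). The ratio lies between 0.69 and 0.76 in the WT-labelled libraries and between 0.37 and 0.42 in the KO-labelled ones, and Id3 is too low to be seen in most bars.

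For each tested member, the genes with the most similar profile were found among tested genes with a mean of at least 5, by the root mean square distance between log2(value + 1) values centred on their own means over the 6 libraries. For Id2 these were Gda, a guanine deaminase, at a distance of 0.031 (25.3 ± 1.19 TPM in the WT-labelled libraries, 8.96 ± 0.066 in the KO-labelled ones, SD, n = 3 in each group), and Stfa2l1, a stefin-like cysteine protease inhibitor gene, at 0.032 (264 ± 9.13 and 102 ± 3.40 TPM, SD, n = 3 in each group). Nearest to Id1 were Trnt1 at 0.026 and Rdh14 at 0.031, and nearest to Tcf12 were Pon2 at 0.015 and Rapgef6 at 0.016. Hspbp1 at 0.016 and Traf3 at 0.018 were nearest to Tcf3, and Chkb at 0.033 and Tia1 at 0.035 to Tcf4. With 2 groups of 3 libraries, a short distance mostly reflects a like difference between the groups.

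The partners of E-proteins on the DNA were measured next. Of 12 class II bHLH genes listed, which encode the tissue-specific partners, only 2 had a mean of at least 1, and both were higher in the KO-labelled libraries, as were 29.3% of all tested genes. Tal1, a master regulator of blood stem cells and red cells, rose from 47.1 ± 0.57 to 55.3 ± 1.74 TPM (SD, n = 3 in each group, log2 difference 0.23, adjusted p = 0.0011 from limma, or 0.37 with equal library sums). Lyl1, its close relative in blood progenitors, rose from 40.6 ± 2.63 to 57.7 ± 1.80 TPM (SD, n = 3 in each group, log2 difference 0.50, adjusted p = 2.0e-04 from limma). The other 10, among them Msc, Ascl2 and Twist1, had means below 1 TPM in both groups.

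Of 13 genes of the complex in which Tal1 and an E-protein are joined by Lmo2 and Ldb1, all had a mean of at least 1, and 3 were higher and 4 lower in the KO-labelled libraries. The share called, 53.8%, was near the 60.7% of all tested genes, and the median log2 difference of 0.054 was near that of all genes, -0.0097. Lmo2, the bridging LIM protein, rose from 133 ± 2.49 to 192 ± 3.46 TPM, and Ldb1, which dimerises the complex, from 69.9 ± 1.52 to 114 ± 3.19 TPM (SD, n = 3 in each group, log2 differences 0.53 and 0.70, adjusted p = 1.1e-05 and 6.8e-06 from limma). Erg, an ETS factor that binds beside the complex, rose by 0.85 on the log2(value + 1) scale. Fli1, also an ETS factor, had a log2 difference of -0.17 (adjusted p = 0.0080 from limma). It was not called with equal library sums (-0.031, adjusted p = 0.52 from limma). Lmo1 and Lmo4, LIM-only proteins that bind Ldb1 as Lmo2 does, fell by 1.10 and 0.74, Lmo1 from 8.55 ± 0.38 to 3.45 ± 0.22 TPM (SD, n = 3 in each group). Ssbp2, which stabilises Ldb1, had a log2 difference of -0.18 (adjusted p = 0.0052 from limma) that was not called with equal library sums (-0.033, adjusted p = 0.45 from limma). Gata1, Gata2, Runx1, Cbfb, Ssbp3 and Ssbp4 were not called, with log2 differences between -0.04 and 0.19. The list held 7 genes called higher and 2 lower with equal library sums, beside 5290 and 2367 of the 12150 genes tested there. With quantile normalization it held 6 higher and 4 lower, beside 3776 and 3452 of 12155.

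Coactivators and corepressors that E-proteins bind formed a list of 15 genes, 14 of them tested, of which 10 were higher and 0 lower in the KO-labelled libraries (71.4% called, median log2 difference 0.24). Of all tested genes 60.7% were called, 29.3% higher and 31.3% lower, with a median of -0.0097. Cbfa2t3 (ETO2), a corepressor that binds E-proteins and sits in the Tal1 complex, rose from 13.4 ± 1.38 to 20.8 ± 0.42 TPM (SD, n = 3 in each group, log2 difference 0.60, adjusted p = 3.5e-04 from limma). Hdac2, a histone deacetylase, rose from 58.7 ± 2.12 to 87.6 ± 3.14 TPM, and the nuclear receptor corepressor Ncor1 from 41.2 ± 2.40 to 56.6 ± 1.11 TPM (SD, n = 3 in each group). The acetyltransferase gene Ep300 was at 12.3 ± 1.50 and 12.3 ± 2.23 TPM and was not called, as were Cbfa2t2, Kat2b and Rcor1. Rcor1 was called higher with equal library sums (log2 difference 0.11, adjusted p = 0.049 from limma), and Kat2b in 1 of the 14 alternatives. At 1.88 and 2.34 TPM, Crebbp was the lowest of the called genes and was lost in 7 of the 14 alternatives. Kdm1a was lost in 3 of them. When each library was left out in turn, 8 to 10 genes of the list were called higher and 0 lower. Runx1t1 (ETO) was below the minimum, at about 0.01 TPM.

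Id genes are targets of BMP and TGF-β signals, and 32 genes of that input were listed. Of the 17 tested, 5 were higher and 8 lower in the KO-labelled libraries (76.5% called, median log2 difference -0.15), beside 60.7% of all tested genes, 29.3% higher and 31.3% lower. The ligand Tgfb1 was the most abundant, at 159 ± 5.48 and 200 ± 10.3 TPM (SD, n = 3 in each group), and rose by 0.33 on the log2(value + 1) scale (adjusted p = 7.9e-04 from limma). The BMP ligands listed, Bmp2, Bmp4, Bmp6 and Bmp7, were all below 0.1 TPM on average. Among the receptors, Tgfbr2 fell from 6.59 ± 0.24 to 3.89 ± 0.22 TPM (SD, n = 3 in each group, log2 difference -0.64, adjusted p = 1.0e-04 from limma), and Bmpr2 rose from 4.53 ± 0.36 to 5.82 ± 0.43 TPM (log2 difference 0.30, adjusted p = 0.010 from limma). Bmpr1a fell from 2.56 ± 0.41 to 1.37 ± 0.23 TPM (SD, n = 3 in each group, log2 difference -0.59, adjusted p = 0.0037 from limma). Tgfbr1, Tgfbr3 and Eng were also called lower, with log2 differences of -0.31, -0.34 and -0.31. Among the Smad genes, which carry the signal to the nucleus, Smad2 fell from 24.0 ± 0.21 to 16.9 ± 0.43 TPM and Smad3 rose from 2.30 ± 0.17 to 4.12 ± 0.15 TPM (SD, n = 3 in each group). Of the BMP-specific Smads, Smad1 and Smad9 were below the minimum, and Smad5 went from 9.83 ± 1.01 to 7.78 ± 0.71 TPM (SD, n = 3 in each group, log2 difference -0.30, adjusted p = 0.022 from limma), a call lost in 5 of the 14 alternatives, among them equal library sums (-0.17). Smurf1, a ubiquitin ligase for Smads, fell by 0.52 on the log2(value + 1) scale. Leaving out replicate 1 of the WT-labelled libraries, or replicate 2 or 3 of the KO-labelled ones, left 3 of the 5 genes called higher.

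Genes known as E-protein targets mostly stood near 0. Of 21 listed, 15 had a mean below 1, among them the lymphoid genes Rag1, Rag2, Ebf1, Pax5 and Dntt at 0.031 TPM or less, and Vpreb2 was at 0 throughout. Of the 6 tested, 1 was higher and 3 lower in the KO-labelled libraries (66.7% called, median log2 difference -0.23), a share near the 60.7% of all tested genes. Cdkn1a, the cell cycle inhibitor p21 that E-proteins activate and Id proteins restrain, fell from 67.3 ± 1.69 to 48.0 ± 1.14 TPM (SD, n = 3 in each group, log2 difference -0.48, adjusted p = 3.5e-05 from limma). Gfi1, a repressor needed for granulocytes, fell from 9.20 ± 0.48 to 6.87 ± 0.024 TPM (SD, n = 3 in each group, log2 difference -0.37, adjusted p = 6.5e-04 from limma, or -0.24 with equal library sums). Notch1 (log2 difference -0.49, between -0.79 and -0.41 in the alternatives) was the remaining gene called lower, with a mean below 2 TPM. The gene called higher was Lef1, at 0.59 ± 0.23 and 1.51 ± 0.23 TPM (SD, n = 3 in each group), which passed the minimum mean only through the KO-labelled group, so its call is no support for a rise of these targets. Without replicate 2 or replicate 3 of the KO-labelled libraries it fell below the minimum and was not tested.

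Id and E-proteins are short-lived, and 6 genes for their turnover were listed and tested, 4 higher and 1 lower in the KO-labelled libraries (83.3% called, median log2 difference 0.21), beside 60.7% of all tested genes, 29.3% higher and 31.3% lower. Skp2 and Stub1 encode ubiquitin ligases that act on E2A proteins. Skp2 rose from 7.45 ± 0.66 to 12.7 ± 0.97 TPM and Stub1 from 33.1 ± 1.44 to 48.5 ± 2.04 TPM (SD, n = 3 in each group, log2 differences 0.70 and 0.54). Cks1b, a cofactor of Skp2, rose by 0.28 on the log2(value + 1) scale, and by 0.43 with equal library sums. Fzr1, the activator of the ligase that degrades Id2, went from 43.6 ± 1.93 to 37.8 ± 1.97 TPM (SD, n = 3 in each group, adjusted p = 0.011 from limma), a call lost with equal library sums (log2 difference -0.057). Usp1, which removes ubiquitin from Id proteins, was at 55.8 ± 3.36 and 57.6 ± 3.47 TPM (SD, n = 3 in each group) and was not called. It was called higher with equal library sums (log2 difference 0.19, adjusted p = 0.033 from limma). Wdr48 was the remaining gene called higher (log2 difference 0.14, adjusted p = 0.021 from limma), a call lost in 3 of the 14 alternatives. Of the 3 Rb family genes, whose products Id2 can bind, Rbl1 rose from 16.8 ± 0.95 to 20.7 ± 1.13 TPM (SD, n = 3 in each group), Rbl2 was not called, and Rb1 had a log2 difference of -0.34 (adjusted p = 0.028 from limma) that lost its call in 6 of the 14 alternatives, among them equal library sums (-0.20) and those without WT replicate 2 or 3 and without KO-labelled replicate 1 or 2.

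**Figure D4:**
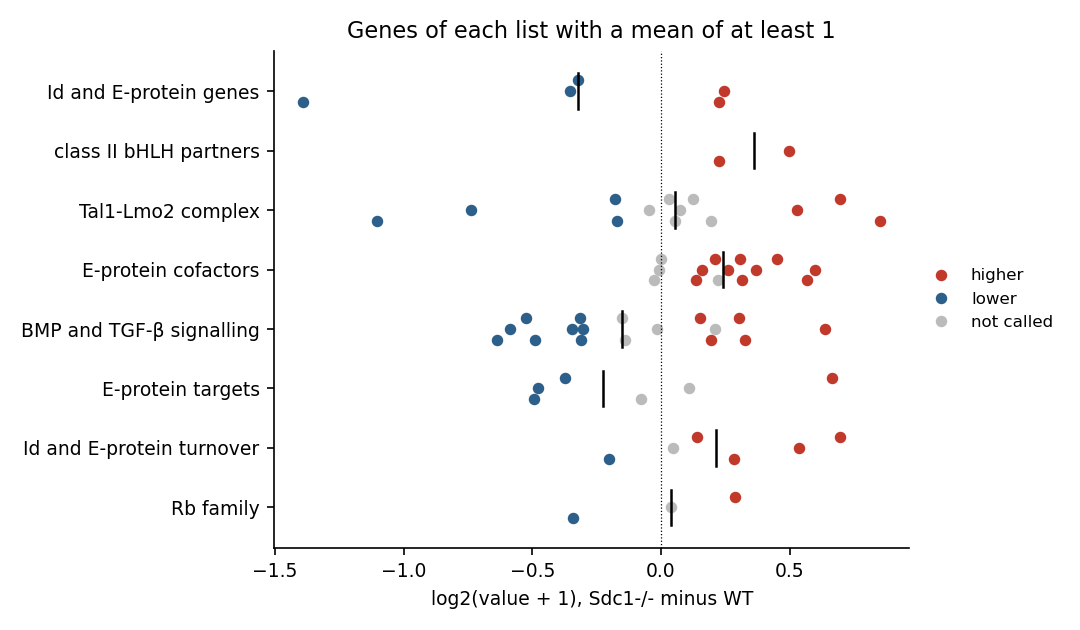
Log2 difference, Sdc1-/- minus WT, of each gene with a mean of at least 1 in the 8 lists, with a point per gene and a vertical black line for the median of the list. Points are coloured by the limma call, and the cofactor list has 10 genes called higher and 0 lower, where 29.3% and 31.3% of all tested genes were.

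The cells were checked against markers of the populations that a Lin- sort of spleen could hold, because fewer cells of a type and less RNA per cell cannot be told apart in bulk samples. Myeloid progenitor markers were present, with Mpo at 322 and 245 TPM and Kit at 12.8 and 14.7 TPM, and of the 9 tested 1 was higher (Kit) and 8 lower in the KO-labelled libraries, where of all tested genes 29.3% were higher and 31.3% lower. Their summed level was 1274 to 1369 TPM in the WT-labelled libraries and 871 to 901 in the KO-labelled ones. All 7 neutrophil markers fell, with a median log2 difference of -1.72 and a summed level of 3713 to 3745 TPM against 1349 to 1427. Of the 7 monocyte and macrophage markers 6 fell and Cx3cr1 rose, with sums of 565 to 586 TPM against 253 to 262. All 4 mast cell and basophil markers fell, with sums of 406 to 411 TPM against 145 to 147. Of the 5 erythroid markers 3 fell and 2 rose (Klf1 from 49.1 to 56.8 and Epor from 35.0 to 38.7 TPM). The sums of the 5 were 5129 to 5910 TPM against 3003 to 3271, mostly from Hba-a1 (2432 and 1167 TPM) and Hbb-bs (2973 and 1862 TPM). The summed levels of these 5 lists moved in the same direction as Id2, Id1 and Tcf12, and their part in the fall of those genes was not tested.

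The remaining marker counts stand beside 60.7% of all tested genes called, 29.3% higher and 31.3% lower. Of the 4 megakaryocyte markers 3 fell and Pf4 rose, with sums of 485 to 512 TPM against 491 to 502. No B or T cell marker of 5 each reached a mean of 1, with sums of at most 0.25 and 0.98 TPM. Among plasmacytoid dendritic cell markers, the cells that depend on Tcf4, only Bst2 was tested, and it rose from 74.7 to 96.3 TPM, while Siglech was at 0.036 and 0.025 TPM, so the defining marker of that cell type was near 0 in both groups (sums 71.6 to 78.6 against 94.7 to 99.5 TPM). Of 4 natural killer markers 2 were tested and Gzma fell, which like Csf1r among the monocyte markers passed the minimum only through the WT-labelled group (sums 8.47 to 8.85 against 6.70 to 6.88 TPM), of 5 classical dendritic cell markers both tested genes fell (15.1 to 16.4 against 8.67 to 9.48 TPM), and of 5 endothelial markers only Pecam1 was tested and fell, with Cdh5 at 0.019 and 0.0087 TPM (sums 15.1 to 16.2 against 13.5 to 13.9 TPM). Of 5 stromal markers Col1a2 rose and Pdgfrb fell, with sums of 25.5 to 26.9 TPM against 27.3 to 27.6, and Lum was at 0 throughout. With equal library sums the calls of Ptprc, Cd34, Itga2b and Pecam1 were lost, Gzma fell below the minimum and was not tested, all other marker calls held under that scaling, and those of Kit and Epor were lost in 3 and 7 of the 14 alternatives. The part of these cells in the differences of Tcf3 and Tcf4 was not tested.

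Reads shared with other genes could affect members of a family. No word of 31 bases in the GENCODE M21 transcripts of Id1, Id3 or Tcf3 occurred in transcripts of another gene. Only the sense strand of each transcript was searched, so words shared with transcripts in the antisense direction were not looked for. Of the 2433 words of Id2, 39 (1.60%) were shared, all with Gm6175, whose highest value in any library was 0.095 TPM. Tcf4 shared 152 of 27956 words (0.54%) and Tcf12 shared 103 of 15845 (0.65%) with other genes, and 6 of these words were common to Tcf4 and Tcf12.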

How the data were processed

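RNA was extracted from Lin- bcCML cells, and 150 ng per library was sequenced in single reads of 75 bases, with 3 libraries labelled WT and 3 labelled Sdc1-/-. The authors assigned reads to transcripts with kallisto (version not given in the sources used here), summed them per gene and deposited for each library a signal per gene, TPM rescaled between libraries, for 36083 genes. The submitters' processing notes name mm10 and sleuth 0.30.0. A further table deposited by the authors holds p-values, q-values, effect sizes and variances from their own sleuth comparison and was not used. The labels name NSG recipients, and every column was matched to a sample (0 columns without one).

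Symbols were matched for 35454 genes. Genes whose mean reached 1, 12155 in number, were tested with limma 3.58.1 in R 4.3.3 on log2(value + 1), by a model with group alone, eBayes with a trend, and Benjamini-Hochberg adjustment at 0.05. Plain TPM had been assumed in the design, and the test was not altered for the rescaled values. Within a group, log2 values correlated at 0.993 to 0.996 across genes, which are not independent replicates. Read depth is unknown, so no counting interval was given. The script was tested on simulated data, in which 191 of 200 genes changed by a log2 difference of 1 were recovered among 12155 and 0 genes were called with no change. Smaller differences, such as those of Id1, Tcf3, Tcf4 and Tcf12, were not simulated. The noise was drawn independently for each gene from the spread within groups, so spread between mice was not covered. Tables, words, motifs and plots were made with Python 3.11.15, pandas 2.3.3, numpy 2.4.6 and matplotlib 3.10.9.

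The members and the gene lists were chosen with earlier results of these data known. Genes were named by a rule: all members, Id4 and Sdc1, up to 3 higher and 3 lower called genes of each list with the largest difference and a mean of at least 2, the 2 nearest profiles of each member, and the highest and lowest markers. Genes named beyond that rule were chosen after their values were seen. Alternatives, 14 in all, used a pseudocount of 0.1 or 0.5, no minimum mean or one of 5, libraries set to a sum of 1000000 or quantile-normalized, eBayes without a trend, a replicate block, and each library left out in turn. The replicate numbers were not taken as pairs.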

Additional observations from a re-analysis of the deposited data

How the results depend on the processing

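Id1, Id2, Tcf3 and Tcf12 kept their direction and their call in all 14 alternatives. Tcf4 kept its direction but had no call without a minimum mean (0.23). With each library left out in turn its log2 difference ran from 0.18 to 0.28, the call was lost in 3 of 6 such fits, at 0.18 to 0.20, and 1 to 2 of the 6 genes were called higher. With libraries at a common sum of 1000000, 5290 genes were called higher and 2367 lower over all genes, with 0 lower in the turnover list and 0 in the Rb family. The Tal1-Lmo2 list then had 7 higher and 2 lower, or 6 higher with quantile normalization, where 3776 of all genes were called higher. Without a minimum mean, the class II bHLH list had 4 higher and 1 lower and the Rb family 0 lower, and a minimum mean of 5 left 0 E-protein targets higher. Leaving out each library in turn gave 8 to 10 higher genes in the cofactor list and 3 to 5 in the BMP and TGF-β list. It also gave 0 to 1 higher E-protein targets and 0 to 1 lower Rb family genes. The cause of these shifts was not tested, apart from genes that drop below a minimum, as Lef1 does at a minimum of 5 and without KO replicate 2 or 3. Same-numbered libraries did not all deviate together (correlations of 0.15, -0.0083 and 0.018 across genes), and WT replicate 2 correlated best with KO replicate 3 (0.14). With the replicate block, 7624 genes were called, 3653 higher and 3971 lower, and the adjusted p of Id2 was 8.2e-05 from limma. The unknown read depth limits Id3 most.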
